A study of Homo sapiens with 8 samples.

Results

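The zinc finger genes of human chromosome 19 with number-only names (ZNF followed by digits) were described across 4 human tumour cell lines. The array design held 221 such genes among 18417 genes with a probe set of their own, and each gene was represented by its probe set of the highest mean over the arrays. RefSeq lists 240 protein-coding genes of this kind on the chromosome, of which 20 were not measured, 14 of them because their probe sets name several genes. All 221 were kept, ZNF781 included, which RefSeq now lists as a transcribed pseudogene.

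The study sorted cells by fluorescence with an antibody against ABCB5, a drug transporter of the ATP-binding cassette family, and asked how the gene relates to resistance to cell death. RNA of the ABCB5-negative and of the ABCB5-positive cells of each line was run on an Affymetrix Human Gene 1.0 ST array, a chip that reads many short stretches along each transcript. There were 8 arrays, of the lines COLO741, SW620, HT29 and HCT116, each with 1 ABCB5-negative and 1 ABCB5-positive array. No line carried a transgene or a drug treatment, and each is a long-established tumour line grown in RPMI medium with serum. The labels call every line colon carcinoma. The series' design text has SW480 where the samples have SW620, and the samples' name is used here without a check of which is correct.

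Most zinc finger genes of chromosome 19 encode proteins with a KRAB domain at one end and a row of C2H2 zinc fingers at the other. The fingers read DNA, often in transposable elements, and the KRAB domain recruits TRIM28 (KAP1), which brings the histone methyltransferase SETDB1 and heterochromatin protein to repress the bound region. The genes arose by repeated tandem duplication and lie in clusters, and their promoters are a known target of DNA methylation in cancer cell lines.

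Levels are given as deposited log2 values, so a difference of 1 is a 2-fold difference. A background was read from 360 probe sets of olfactory receptor genes, which these cells are not known to use: their median was 5.73 and their 95th percentile 7.5. A gene was called silent in a line where both of the line's arrays lay under 7.5, expressed where both lay at least 1 log2 unit above it, and between otherwise. Silent here means not above that background. Levels are compared between lines for 1 gene at a time, since probe sets differ in brightness. Where a line is silent, a difference from it is a bound: it was computed with values under the threshold set to the threshold and is given as at least so many fold. For 23 of the 884 pairs of a gene and a line (2.6%) the threshold fell between the line's 2 arrays, and in 0 of these did the other array reach the expressed range.

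The lines were set against marker lists. COLO741 expressed 6 of 6 measured melanocyte markers (mean level 13.10 and 12.91 on its arrays, against 6.68 to 6.89 on the others) and 2 of 10 intestinal markers, with the epithelial adhesion gene EPCAM at 5.90. The other lines expressed 5 to 8 of the 10 intestinal markers and 0 of the melanocyte markers, so COLO741 went against its label. Leukocyte markers had a mean of 8.21 on the SW620 ABCB5-positive array and of 6.50 to 6.75 on the other arrays. On that array LAPTM5, CYBB, FCER1G and CD53 read 9.91, 9.28, 8.93 and 8.26. CD79A read 7.76, PTPRC 6.96 and CD3E 6.33 there. LAPTM5 read 8.85 on the SW620 ABCB5-negative array as well. Fibroblast and endothelial markers were expressed for 1 of 6 in every line. Every array median lay between 8.03 and 8.10.

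Promoters are printed first for 3 genes with large differences between lines. ZNF626, ZNF486 and ZNF43 lie in the cluster of chromosome 19 with the most genes that some lines expressed and others did not. The 250 bases before the start site are printed 5′ to 3′ in the direction of the gene, from RefSeq's promoter table (GRCh38.p14), with CG dinucleotides, the sites of DNA methylation, in capitals. The ZNF626 stretch is chr19:20661572-20661821 on the minus strand, that of ZNF486 is chr19:20166964-20167213 on the plus strand, and that of ZNF43 is chr19:21836183-21836432 on the minus strand.
ZNF626: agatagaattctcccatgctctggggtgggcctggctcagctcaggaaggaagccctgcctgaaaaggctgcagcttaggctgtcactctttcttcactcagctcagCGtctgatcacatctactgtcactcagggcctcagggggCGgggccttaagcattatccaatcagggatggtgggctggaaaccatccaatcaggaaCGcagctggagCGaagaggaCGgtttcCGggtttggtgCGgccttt
ZNF486: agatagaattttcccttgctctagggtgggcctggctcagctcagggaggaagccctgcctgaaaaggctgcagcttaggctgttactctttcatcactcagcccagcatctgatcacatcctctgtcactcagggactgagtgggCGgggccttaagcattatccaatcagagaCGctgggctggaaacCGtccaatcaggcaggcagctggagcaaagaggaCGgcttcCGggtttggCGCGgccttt
ZNF43: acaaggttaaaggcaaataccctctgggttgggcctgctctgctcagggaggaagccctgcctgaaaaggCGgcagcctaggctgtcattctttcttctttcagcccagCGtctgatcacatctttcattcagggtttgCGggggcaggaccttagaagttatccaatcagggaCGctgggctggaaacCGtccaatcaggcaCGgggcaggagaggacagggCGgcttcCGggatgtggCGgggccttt

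These 3 promoters resembled each other. Over the 300 bases from 250 before to 50 after the start, ZNF626 and ZNF486 were identical at 87.5% of aligned positions, ZNF486 and ZNF43 at 78.7%, and ZNF626 and ZNF43 at 77.0%. They held 7, 7 and 9 CG dinucleotides in the 250 bases shown. All 3 carried the stretch CCAATCAG, which contains the CCAAT box bound by the factor NF-Y.

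A second set comes from other clusters of the chromosome and shows genes with the same on-or-off behaviour and unlike promoters. ZNF382, at chr19:36605063-36605312 on the plus strand, was expressed in COLO741 and silent in the other lines, and its 250 bases hold 24 CG. ZNF134, at chr19:57613992-57614241 on the plus strand, was silent in HT29 and expressed in the other 3 lines, with 17 CG. ZNF304, at chr19:57351021-57351270 on the plus strand, was silent in SW620 and HT29, expressed in HCT116 and between in COLO741, with 17 CG. ZNF570, at chr19:37467522-37467771 on the plus strand, was expressed in SW620, silent in HT29 and HCT116 and between in COLO741, with 10 CG.
ZNF382: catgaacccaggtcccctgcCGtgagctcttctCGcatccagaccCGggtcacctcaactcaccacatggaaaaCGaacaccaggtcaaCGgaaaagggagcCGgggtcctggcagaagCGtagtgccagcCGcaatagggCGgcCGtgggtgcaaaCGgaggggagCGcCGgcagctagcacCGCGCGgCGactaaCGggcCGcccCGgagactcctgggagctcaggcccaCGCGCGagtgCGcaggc
ZNF134: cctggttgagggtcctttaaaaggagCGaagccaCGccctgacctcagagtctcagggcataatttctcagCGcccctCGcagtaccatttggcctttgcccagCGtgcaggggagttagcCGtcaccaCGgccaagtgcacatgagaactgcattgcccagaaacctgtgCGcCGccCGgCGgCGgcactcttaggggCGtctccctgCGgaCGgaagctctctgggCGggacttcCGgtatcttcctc
ZNF304: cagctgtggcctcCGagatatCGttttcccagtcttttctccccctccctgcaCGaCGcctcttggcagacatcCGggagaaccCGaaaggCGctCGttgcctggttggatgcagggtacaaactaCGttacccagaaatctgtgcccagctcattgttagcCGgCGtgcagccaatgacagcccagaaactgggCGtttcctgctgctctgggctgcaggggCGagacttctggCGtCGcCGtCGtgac
ZNF570: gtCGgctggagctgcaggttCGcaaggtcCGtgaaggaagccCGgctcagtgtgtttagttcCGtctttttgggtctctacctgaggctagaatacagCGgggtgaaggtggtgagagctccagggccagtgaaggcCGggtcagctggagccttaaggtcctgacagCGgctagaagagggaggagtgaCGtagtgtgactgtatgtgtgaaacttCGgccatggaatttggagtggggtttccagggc

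Against the promoter of ZNF626, the windows of these 4 genes were identical at 47.1% (ZNF304) to 51.5% (ZNF570) of aligned positions. The median over pairs of zinc finger genes from different clusters was 50.4%.

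The zinc finger genes were asked first for genes that some lines express and others do not. Of the 221 genes, 33 were silent in at least 1 line and expressed in at least 1 other, or 14.9%, where 5.93% of all 18417 genes met the same rule. Among 218 number-named ZNF genes of other chromosomes 16 did (7.34%), and among 1087 other genes of chromosome 19 it was 27 (2.48%). A further 29 zinc finger genes (13.1%, against 22.4% of all genes) were silent in every line, 68 (30.8%, against 45.1%) were expressed in every line, and 91 had other patterns. The levels choose these genes, so the counts are a description and carry no test. In bulk samples, fewer expressing cells and less RNA per cell cannot be told apart.

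Silence was most frequent in HT29 and HCT116. Silent here and expressed elsewhere were 23 zinc finger genes in HT29 (10.4%, against 3.15% of all genes), 23 in HCT116 (10.4%, against 2.81%), 15 in SW620 (6.79%, against 2.7%) and 1 in COLO741 (0.452%, against 2.19%). HT29 and HCT116 shared 16 of the genes, which is 16 of 23 for either line. Only HT29 was silent for 4 genes, only HCT116 for 6 and only SW620 for 3. Neither the shared count nor these counts were taken over all genes, so nothing is read from them. COLO741 expressed 27 of the 33 genes, was between for 5, and was silent for ZNF114. The same order held over all patterns, since 92 zinc finger genes were silent in HT29, 90 in HCT116, 66 in SW620 and 38 in COLO741, while the share of all genes that was silent ran from 28.5% to 30% over the lines.

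**Figure D1:**
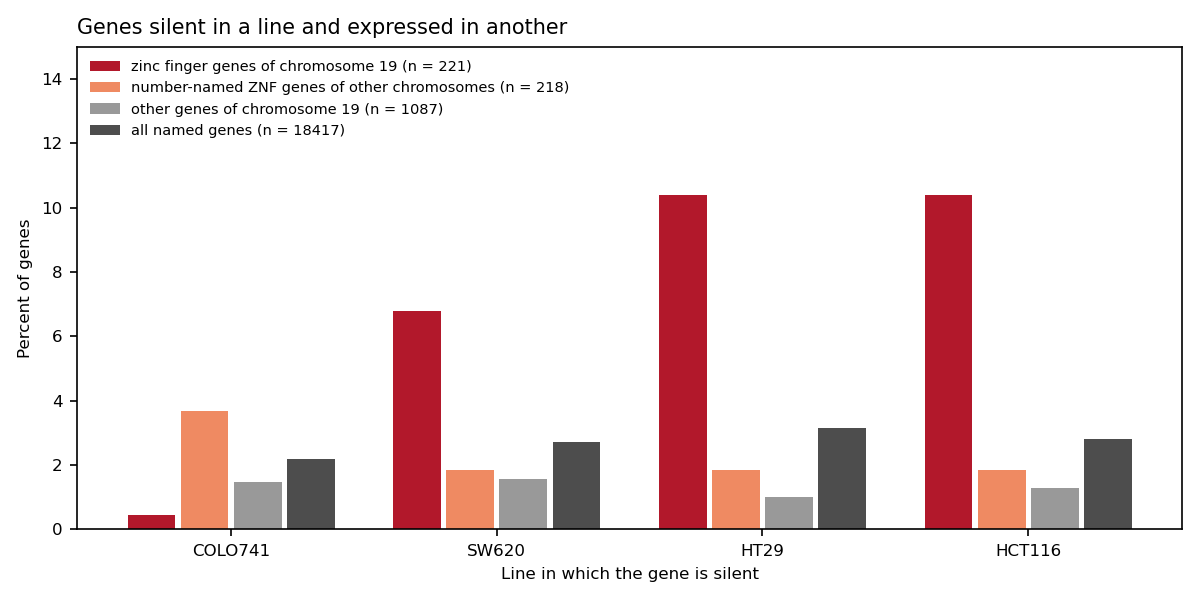
Percent of genes in each class that were silent in the line on the x axis and expressed in at least 1 other line; each bar is a share of the genes of that class and has no error. Zinc finger genes of chromosome 19 reach 10.4% in HT29 and HCT116 and 0.452% in COLO741, while all named genes lie between 2.19% and 3.15%.

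COLO741 carries the melanocyte markers, and its part in these counts could be measured. With COLO741 left out, 19 zinc finger genes were silent in some of SW620, HT29 and HCT116 and expressed in another (8.6%, against 3.65% of all genes).

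The expressed lines of the 33 genes lay above the silence threshold by at least 2.33-fold (ZNF114) to at least 15.5-fold (ZNF626), with a median bound of 3.95-fold. ZNF813, ZNF114 and ZNF224 met the rule by 0.0095, 0.047 and 0.050 log2 units: the dimmer array of the brightest line read 8.51 for ZNF813 and 8.55 for ZNF114, and the brighter array of the dimmest line read 7.45 for ZNF224. ZNF529, ZNF461 and ZNF615 missed it, with 8.46, 8.43 and 8.41 on the dimmer array of their brightest line.

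ZNF626 was expressed in 3 lines and silent in HCT116. Its ABCB5-negative and ABCB5-positive arrays read 12.80 and 12.46 for COLO741 cells, 12.24 and 12.13 in SW620, 9.34 and 9.78 in HT29, and 4.86 and 5.41 in HCT116. The HCT116 arrays lay below the olfactory median of 5.73, and the mean of the 3 expressed lines was at least 15.5-fold higher. HT29 took a middle place more than 2 log2 units under SW620 and COLO741.

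ZNF486 was on in COLO741 (11.52 and 11.04) and SW620 (11.23 and 11.24) and off in HT29 (6.75 and 7.21) and HCT116 (6.83 and 6.63). The rule that chose the gene keeps silent and expressed lines apart, and the expressed lines were at least 13.5-fold higher. ZNF253 had the same pattern, with 10.21, 9.96, 9.57 and 9.57 in COLO741 and SW620, and 6.81, 7.20, 6.60 and 6.20 in HT29 and HCT116. So had ZNF93, a repressor of LINE-1 elements, with 10.59 and 10.67 in COLO741, 9.01 and 9.16 in SW620, 6.83 and 6.77 in HT29, and 6.24 and 6.64 in HCT116.

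ZNF506 was silent in HCT116 alone. It read 11.46 and 11.06 in COLO741, 11.46 and 11.41 in SW620, 9.34 and 9.47 in HT29, and 6.45 and 6.60 in HCT116. Like ZNF626, its neighbour further along the cluster, it was lower in HT29 than in COLO741 and SW620 without reaching the background.

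ZNF737 and ZNF43 were expressed in COLO741 alone. The arrays of ZNF737 read 11.38 and 11.05 in COLO741, 6.66 and 6.89 in SW620, 6.94 and 7.15 in HT29, and 5.34 and 4.31 in HCT116. Those of ZNF43 read 10.30 and 9.97 in COLO741 and 4.88 to 5.08 on all 6 arrays of the other lines. Another 6 genes shared this pattern, namely ZNF730, ZNF382, ZNF880, ZNF528, ZNF347 and ZNF549. ZNF382, reported elsewhere as a tumour suppressor methylated in carcinomas, read 9.98 and 9.79 in COLO741 and 4.63 to 5.17 in the other lines.

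ZNF724 and ZNF134 were silent in HT29 and expressed in the other 3 lines. ZNF724 read 11.27 and 11.09 in COLO741, 11.01 and 11.17 in SW620, 6.49 and 5.95 in HT29, and 10.62 and 10.52 in HCT116. ZNF134 read 10.30 and 9.77, 10.00 and 9.95, 6.44 and 6.33, and 9.64 and 9.42 in the same order. ZNF566 shared the pattern, at 5.87 and 6.37 in HT29 and 8.87 to 9.36 on the other 6 arrays. HCT116 expressed all 3 of these genes, although it lacked many neighbours of ZNF724.

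ZNF841 and ZNF432, neighbours in another cluster, were silent in HCT116 alone. ZNF841 read 9.45 to 10.73 in the other lines and 6.28 and 5.62 in HCT116. ZNF432 read 8.87 to 9.29 in the other lines and 6.53 and 6.47 in HCT116.

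SW620 had its own silent genes. ZNF426 read 6.18 and 5.72 in SW620, against 11.00 and 10.69 in COLO741, 8.89 and 8.89 in HT29, and 8.05 and 7.88 in HCT116. ZNF304 read 5.96 and 5.36 in SW620 and 5.93 and 5.92 in HT29, against 8.99 and 8.88 in HCT116 and 8.94 and 8.45 in COLO741. It was between in COLO741, where the value of 8.45 fell just short of the expressed range. ZNF586 was expressed in HT29 alone, at 9.81 and 9.62, with 7.42 and 7.26 in SW620. ZNF114 was expressed in HCT116, at 8.89 and 8.55, and silent in the other lines, with 6.54 to 7.21.

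ZNF569 and ZNF570 start 328 bases apart and point away from each other, so that they share the DNA between their starts. ZNF570 read 8.95 and 9.23 in SW620, 7.61 and 8.21 in COLO741, 5.43 and 5.72 in HT29, and 5.26 and 5.65 in HCT116. ZNF569 read 9.0 and 9.10, 7.90 and 7.97, 6.27 and 5.96, and 6.37 and 6.09 in the same order. Their 4 line means had a Pearson correlation of 0.997, which is a description over 4 points. There were 6 such head-to-head pairs of zinc finger genes with starts under 1000 bases apart, with a median correlation of 0.843. The states in the 4 lines were the same in 2 of the 6 pairs and differed in 4. ZNF382, for one, read 5.17 and 5.07 in SW620, while ZNF529, whose start lies 56 bases away, read 8.46 and 8.54 there. ZNF790 and ZNF345 also count as differing, although their line means had a correlation of 0.991. The states put the same thresholds on genes whose probe sets differ in brightness.

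**Figure D2:**
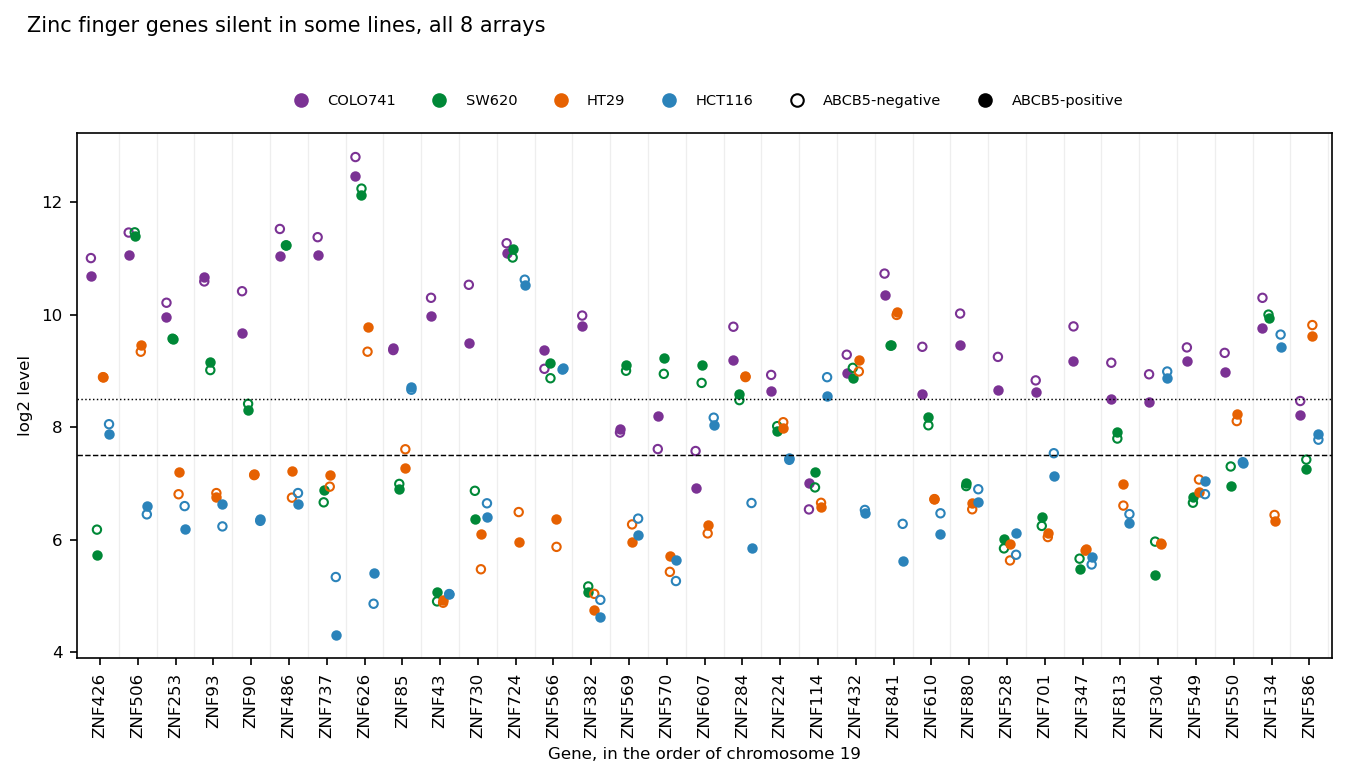
Log2 level of the 33 zinc finger genes that were silent in some lines and expressed in others, on all 8 arrays, in the order of chromosome 19; open circles are ABCB5-negative and filled circles ABCB5-positive arrays, the dashed line is the silence threshold of 7.5 and the dotted line the expressed threshold 1 log2 unit above it. Purple COLO741 points lie in the expressed range for 27 genes. The rule that chose the genes needs both arrays of a line on the same side, so the gap between silent and expressed lines is built in.

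The silent genes were then placed along the chromosome. In RefSeq's gene order the 221 genes formed 18 clusters, a cluster being a run of zinc finger genes with at most 10 other protein-coding genes between neighbours. The cluster from ZNF101 to ZNF507 held 35 of the genes, and 11 of them (31.4%) were silent in some lines. The cluster from ZNF175 to ZNF331 had 8 of 36 (22.2%), that from ZNF565 to ZNF573 had 5 of 24 (20.8%), that from ZNF787 to ZNF446 had 5 of 47 (10.6%), and that from ZNF575 to ZNF180 had 2 of 20 (10.0%). The cluster from ZNF653 to ZNF791 had 0 of 21, with 8 genes silent in all lines and 8 expressed in all lines.

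In the cluster from ZNF101 to ZNF507 the median level of the 35 genes was 6.91 in HCT116, 7.25 in HT29, 9.57 in SW620 and 10.04 in COLO741. HCT116 was silent over a run of 8 neighbours, ZNF506, ZNF253, ZNF93, ZNF682, ZNF90, ZNF486, ZNF737 and ZNF626, of which 7 were expressed in another line. HT29 was silent over 6 of these, from ZNF253 to ZNF737. ZNF90 read 10.42 and 9.67 in COLO741, 8.41 and 8.30 in SW620, 7.15 and 7.17 in HT29, and 6.33 and 6.37 in HCT116. ZNF682, the member of the run that missed the expressed range everywhere, read 8.21 and 7.90, 7.52 and 7.60, 5.73 and 5.12, and 5.71 and 5.02 in the same order.

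The run ended at ZNF626 in HCT116. ZNF85, the next measured zinc finger gene after ZNF626, read 8.66 and 8.71 in HCT116, while SW620, which expressed ZNF626 at over 12, had 6.99 and 6.89. Further along, HT29 was silent over ZNF676, ZNF729, ZNF492, ZNF99, ZNF730 and ZNF724, and HCT116 over the first 5 of them. Of that run ZNF676, ZNF729 and ZNF99 were silent in all 4 lines. ZNF257 in the same cluster was expressed in every line, with 11.38 and 11.48 in HT29, 12.08 and 11.95 in HCT116, 12.45 and 12.08 in SW620, and 13.47 and 12.92 in COLO741.

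The cluster from ZNF565 to ZNF573 held the longest run. HT29 was silent over ZNF527, ZNF569, ZNF570, ZNF793, ZNF540, ZNF571, ZNF781, ZNF607 and ZNF573, 9 neighbours of which 3 were expressed in another line and 3 were silent in all 4. ZNF607 read 8.79 and 9.11 in SW620 and 6.11 and 6.26 in HT29. HCT116 was silent over 8 neighbours, from ZNF875 to ZNF781. In the same cluster ZNF146, a gene for a protein made of fingers without a KRAB domain, was expressed in every line, at 11.71 to 12.77 on the 8 arrays.

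In the cluster from ZNF175 to ZNF331, HT29 and HCT116 were silent over the same 5 neighbours, ZNF610, ZNF880, ZNF528, ZNF534 and ZNF578, and SW620 over the last 4 of them. COLO741 was silent for ZNF534 and ZNF578 as well. ZNF880 read 10.02 and 9.46 in COLO741 and 6.54 to 7.0 in the other lines, and ZNF528 read 9.25 and 8.65 against 5.63 to 6.12. HT29, HCT116 and SW620 were all silent over ZNF415, ZNF347, ZNF665 and ZNF677, of which ZNF347 read 9.79 and 9.17 in COLO741 and 5.48 to 5.83 elsewhere. COLO741 was silent for ZNF665 and ZNF677 too, and between for ZNF415. In the cluster from ZNF575 to ZNF180, HCT116 was silent over ZNF221, ZNF155, ZNF230, ZNF284 and ZNF224. HT29 was silent over the first 3 of them, which reached the expressed range in no line. ZNF284 read 6.65 and 5.85 in HCT116 and 8.48 to 9.78 in the other lines. ZNF224, known as a partner of the WT1 protein, read 7.42 and 7.45 there and 7.93 to 8.93 in the other lines.

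**Figure D3:**
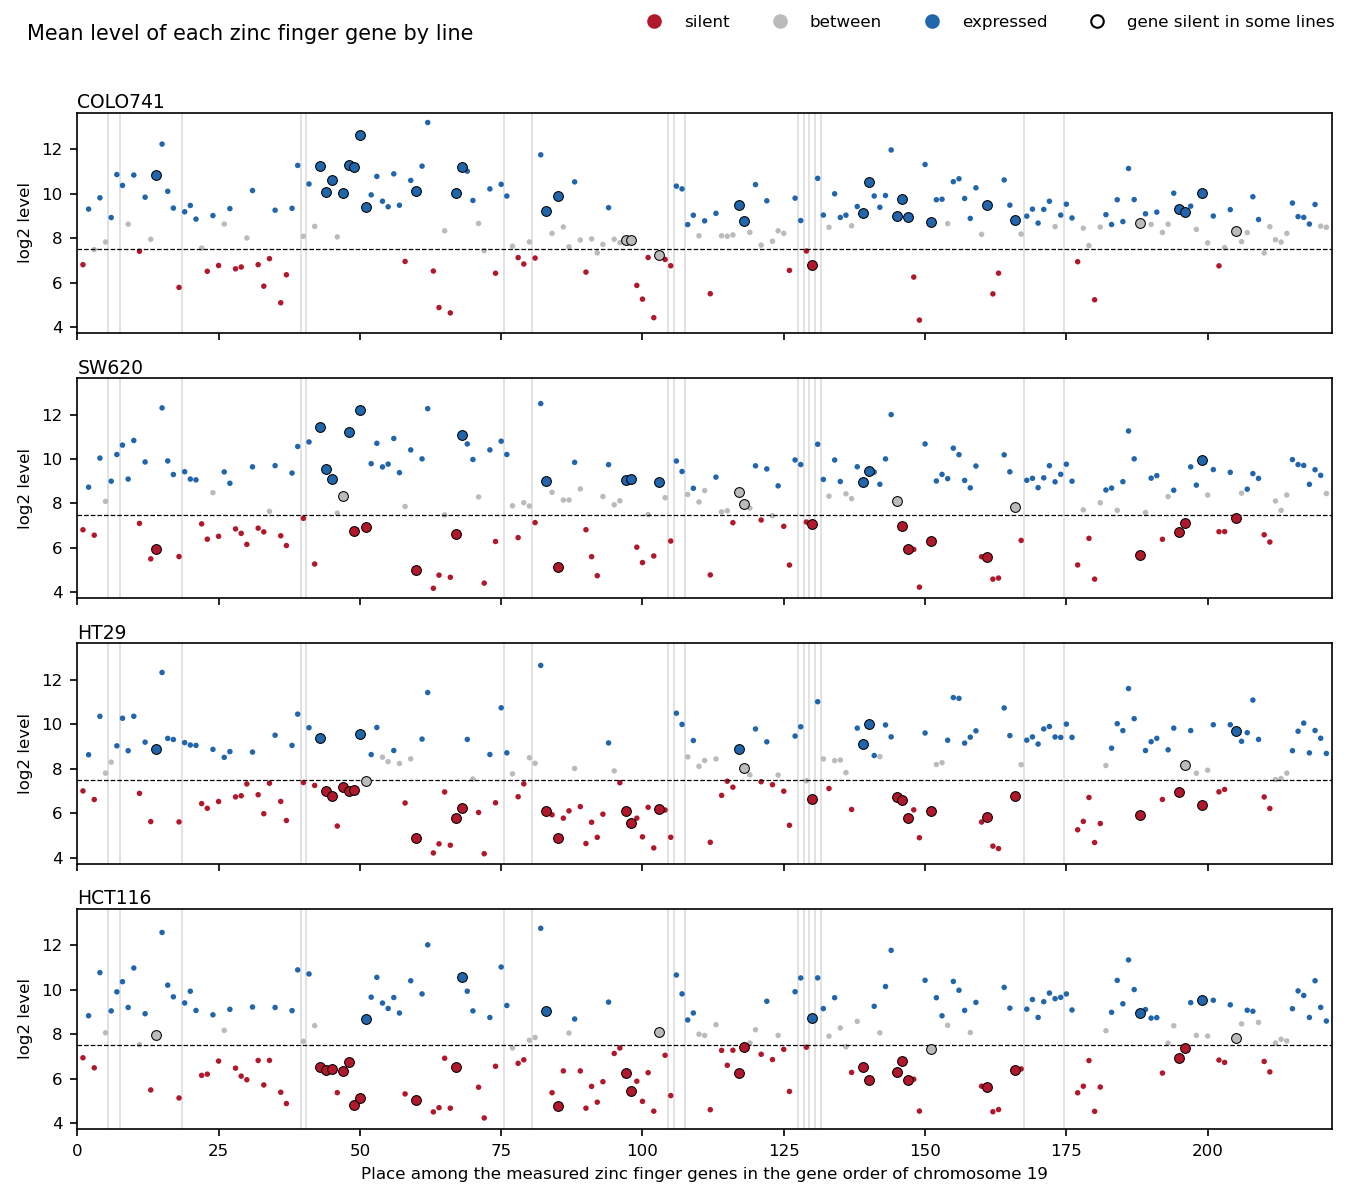
Mean log2 level of each of the 221 zinc finger genes in each line, by place among the measured zinc finger genes in the gene order of chromosome 19 (not to base scale); grey vertical lines part the 18 clusters, the dashed line marks 7.5, and outlined circles are the 33 genes silent in some lines. Outlined red points are crowded between places 43 and 50 in HCT116, the run from ZNF506 to ZNF626, and are nearly lacking in COLO741.

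Pairs of neighbours were set beside all pairs of zinc finger genes. Of 203 neighbouring pairs within clusters, 12 (5.91%) were both silent in a line and both expressed in another, against 333 of 24310 pairs of any 2 zinc finger genes (1.37%). The median correlation over the 4 line means was 0.631 for neighbours and 0.193 for all pairs. Neighbouring pairs of other chromosome 19 genes had a median of 0.411, against 0.214 for all their pairs. These were consecutive measured genes with the zinc finger genes left out and no limit on the distance, so the 2 kinds of neighbour differ. Correlations above 0.9 were reached by 24.6% of neighbouring pairs of zinc finger genes, 8.4% of all their pairs and 11.8% of neighbouring pairs of other genes. These pairs share genes and rest on 4 lines, so no test was made. A switching gene lay next to another for 21 of the 33 genes and did not for 12. Without COLO741 the count of 12 pairs was 4.

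Promoter windows were matched for 195 of the 221 genes, and 26, ZNF506 and ZNF253 among them, had no entry. In the cluster from ZNF101 to ZNF507, 25 of 29 matched genes had a promoter with at least 60% identity to that of another gene of the cluster, up to 91.0%, and these 25 held 8 to 16 CG in the 300 bases, with a median of 10. They were 9 genes silent in some lines, 6 expressed in all lines and 10 with other patterns. The 4 others, ZNF101, ZNF14, ZNF536 and ZNF507, held 16 to 28 CG, and 0 of them were silent in some lines. Related promoters thus occurred both among the genes that switched and among those on in every line.

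Within that cluster the 257 pairs with at least 60% promoter identity had a median correlation of levels of 0.753 over the 4 lines, and the 149 other pairs 0.0804. Every pair with ZNF101, ZNF14, ZNF536 or ZNF507 is among the 149, and ZNF536 was silent in all 4 lines. The pairs share genes, and the 25 genes lie side by side, so place and promoter sequence cannot be told apart here. Near-identical genes can also share probe binding. The deposited table gives no probe sequences, so that part was not tested.

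The stretch CCAATCAG, searched on both strands, occurred in the windows of 27 of 29 genes of this cluster (93.1%), 24 of 166 zinc finger genes of the other clusters (14.5%), and 1136 of 27305 windows of all genes in the table (4.16%). It was in 9 of 9 windows of the cluster's genes silent in some lines and in 7 of 8 of those expressed in all lines. The stretch CTTCCGG, which holds the core bound by ETS factors, occurred in 84 of the 195 windows (43.1%), 17 of 29 of those of genes silent in some lines (58.6%), and 10.7% of all windows. Both stretches were chosen after the sequences were seen, and a match is no measure of binding.

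CG counts of the silent genes overlapped those of the rest. The median was 20 CG per window for 29 genes silent in some lines, 23 for 63 expressed in all, 20.5 for 22 silent in all and 19 for the other 81, with 23 for all named genes. A ratio of observed to expected CG of at least 0.6 was met by 72.4%, 79.4%, 77.3% and 81.5% of these classes, and by 67.6% of all named genes. Between clusters the medians were further apart, at 10 for the cluster from ZNF101 to ZNF507 and 15 to 29 for the others with more than 1 gene. DNA methylation itself was not measured in these arrays.

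**Figure D4:**
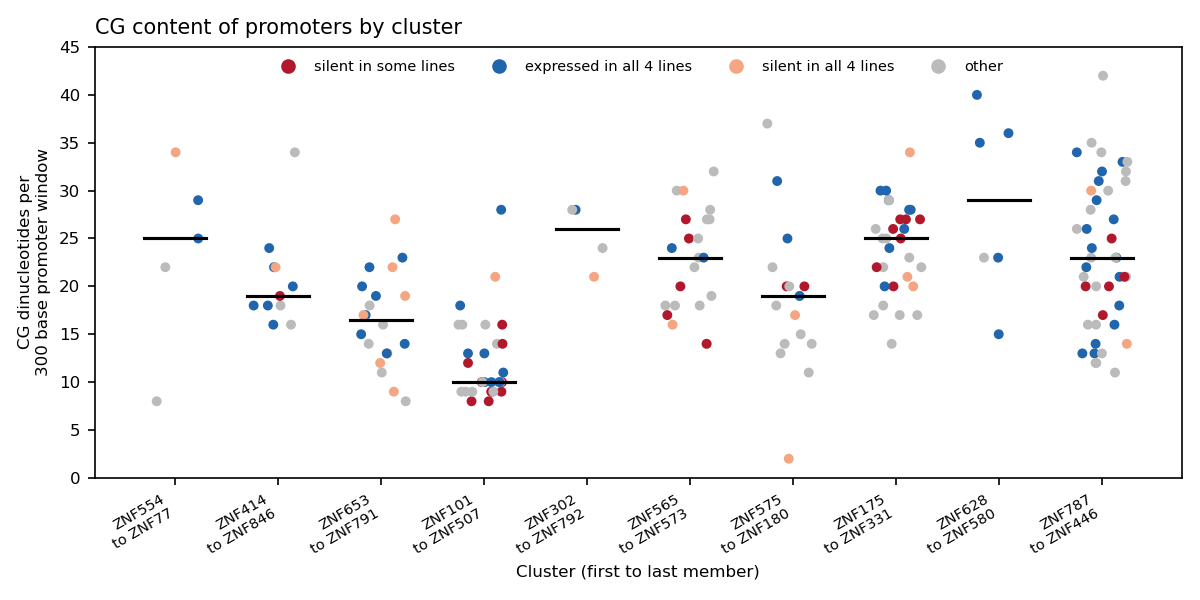
CG dinucleotides in the 300-base promoter window (250 before to 50 after the start, RefSeq GRCh38.p14) of each matched zinc finger gene, by cluster, for the clusters with at least 5 genes; each point is 1 gene coloured by its state in the 4 lines, spread sideways at random, and black bars are medians. The cluster from ZNF101 to ZNF507 lies lowest, with a median of 10, and inside each cluster the red points lie among the others.

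The lines were next compared in a fit over all genes (limma, moderated test with the sorted population as a covariate and Benjamini-Hochberg adjustment over 16910 genes; called at adjusted p under 0.05 and at least 2-fold). Of the zinc finger genes 205 passed the filter on low values and 16 did not, and nothing is read from the passing share. The calls rest on measured values, those under 7.5 included. Between the lines 111 zinc finger genes differed, 54.1% of those tested, where 31.3% of all genes tested did. The share was 30.8% for the ZNF genes of other chromosomes and 20.6% for the other genes of chromosome 19. With no filter, 119 of all 221 differed, against 29.3% of all genes. Without the SW620 ABCB5-positive array, which carried the leukocyte markers, it was 106, with 24 higher and 16 lower in SW620. Without COLO741, 80 differed between the other 3 lines, against 20.9% of all genes. The 2 arrays of a line stand for different sorted populations and the labels do not say that they came from separate cultures, so these p-values measure only the spread between such arrays, which may be technical.

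Against the mean of the other 3 lines, 57 zinc finger genes were higher in COLO741 and 2 lower (1 to 5 lower with 1 array left out), where 8.07% and 6.17% of all genes tested were. In SW620 it was 25 higher and 14 lower (5.54% and 5.32% of all genes), in HT29 4 higher and 51 lower (5.65% and 6.71%), and in HCT116 6 higher and 38 lower (4.23% and 5.33%). The median difference over the tested zinc finger genes was -0.25 in HCT116, -0.20 in HT29, 0.11 in SW620 and 0.39 in COLO741, with 0.04, 0.0033, -0.05 and -0.04 over all genes. The 4 contrasts share arrays and are not independent. COLO741 had the highest line mean for 102 of the 221 genes (46.2%, against 24.8% of all genes), and HT29 and HCT116 had the lowest for 76 and 71. The share of all genes with their lowest mean in these lines was not counted, so nothing is read from 76 and 71.

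The genes higher in COLO741 included ZNF43 and ZNF737, both silent elsewhere. ZNF43 was at least 6.22-fold above the other lines (limma adjusted p = 3.9e-07), and ZNF737 at least 13.1-fold (1.1e-05). ZNF43 passed the filter through COLO741 alone, its other line means lying under 5.73. The same held for ZNF382, ZNF415, ZNF560 and ZNF829, which were also called higher in COLO741. ZNF347, called higher there as well, also needed COLO741 to pass, since its mean over the other lines was 5.67. It was at least 3.95-fold above them. With values under 7.5 set to 7.5, ZNF382 was at least 5.24-fold above the other lines. ZNF415, ZNF560 and ZNF829 were then at least 1.59-fold, 1.36-fold and 1.38-fold above, so their 2-fold calls rest on values under the background. With no filter, 64 zinc finger genes were called higher in COLO741. The 2 genes that were lower in COLO741 were ZNF296, by -1.27 ± 0.09 (SE; 7.5e-05), and ZNF443, which read under 7.5 on all 8 arrays and gets no fold (0.0043). ZNF296 was expressed in every line, with 8.75 and 8.83 in COLO741, 10.54 and 10.51 in HCT116, and values between these in SW620 and HT29. The melanocyte markers moved with COLO741 too, and their part in its higher zinc finger levels was not tested.

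In HT29, ZNF724 was at least 10.9-fold lower than in the other lines (limma adjusted p = 2.2e-06) and ZNF134 at least 5.09-fold (3.4e-06). Lower levels in HT29 also touched genes far above the background: ZNF480 read 9.32 and 9.55 in HT29 and 11.76 to 12.11 on the other 6 arrays, a difference of -2.47 ± 0.11 (1.1e-05). The genes higher in HT29 numbered 4, and 9 without its ABCB5-negative array. They were ZNF586, at least 3.55-fold (limma adjusted p = 1.5e-05), ZNF814, by 1.68 ± 0.19 log2 units (0.0006), ZNF841, at least 1.81-fold (0.00049), and ZNF331, at least 1.37-fold (5.1e-05). ZNF331, an imprinted gene reported as methylated in gut tumours, read 8.09 and 8.27 in HT29 and 8.21 and 8.15 in COLO741, against 6.28 to 6.52 in SW620 and HCT116.

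In HCT116, ZNF626 was at least 15.5-fold lower than in the other lines (limma adjusted p = 6.8e-06) and ZNF506 at least 9.18-fold (6.8e-06). Higher in HCT116 were ZNF304, at least 2.05-fold (6.1e-05), ZNF114, at least 2.33-fold (0.0002), and ZNF264, by 1.27 ± 0.09 log2 units (0.00014). In SW620, ZNF626 was at least 4.88-fold higher (4.1e-05) and ZNF570 at least 2.74-fold (4.6e-06), while ZNF426 was at least 3.33-fold lower (4.6e-06). ZNF14 was also called lower in SW620 (limma adjusted p = 3.9e-05). It gets no fold bound, since HT29 was silent for it too, with a mean of 7.25. ZNF14 read 5.49 and 5.06 in SW620, against 8.84 and 8.21 in COLO741 and 8.31 and 8.45 in HCT116.

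The calls were counted by cluster. Between ZNF101 and ZNF507, 27 of 31 tested genes differed between the lines, where 31.3% of all genes tested did. In this cluster 19 genes were higher in COLO741, and 12 were higher and 3 lower in SW620. In HT29 20 were lower, and in HCT116 2 were higher and 12 lower. Genes that differed were 16 of 20 between ZNF565 and ZNF573 and 23 of 33 between ZNF175 and ZNF331. They were 20 of 45 between ZNF787 and ZNF446, and 7 of 21 between ZNF653 and ZNF791. At the other end, ZNF121 read 12.12 to 12.60 on all 8 arrays, and ZNF460 10.98 to 11.71.

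The proteins that KRAB zinc finger genes work with were followed through a list of 21 genes of TRIM28-mediated repression, all measured. In every line 20 of them were expressed, and ZFP57, a KRAB gene of imprint maintenance, was silent in all 4. None was called in any line contrast at the 2-fold threshold, where 4.23% to 8.07% of all genes were in a direction. TRIM28, the shared corepressor, had line means of 13.57 in HCT116, 13.27 in HT29, 13.14 in SW620 and 12.40 in COLO741. Its difference in COLO741, -0.93 ± 0.08 (limma adjusted p = 0.00015), passed the p threshold and not the 2-fold threshold. SETDB1 had means of 10.01 to 10.33.

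Of 15 genes that write, erase or read DNA methylation, 14 were measured, and 3 were called. TET1, which oxidises methylcytosine, read 6.27 and 6.04 in HT29, 8.17 and 8.20 in HCT116, 8.86 and 8.91 in COLO741, and 10.25 and 9.83 in SW620. It was at least 2.91-fold lower in HT29 than in the other lines (limma adjusted p = 6.9e-06) and at least 3.61-fold higher in SW620 (2e-05). DNMT3B, a de novo methyltransferase, was lower in HT29 by -1.07 ± 0.07 (6.6e-05) and higher in HCT116 by 1.07 ± 0.07 (0.0001). ZBTB38, a zinc finger protein that binds methylated DNA, was higher in COLO741 by 1.87 ± 0.08 (7.8e-06) and lower in HT29 by -1.09 ± 0.08 (0.0001).

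The last comparison was that of the sort. With the line as a block, 0 zinc finger genes and 0% of all genes tested changed between ABCB5-positive and ABCB5-negative arrays (limma, adjusted p under 0.05; lowest adjusted p 0.898), and leaving out SW620 also gave 0. At an unadjusted p under 0.05 it was 15 zinc finger genes, 3 higher and 12 lower, or 7.32% of those tested, against 4.4% of all genes. ZNF570 was higher in the ABCB5-positive array of every line, by 0.60, 0.28, 0.29 and 0.38 (mean 0.39 ± 0.15 SD, n = 4 lines; limma adjusted p = 0.898), the last 2 values being differences between arrays under the olfactory median, where the gene was silent. ZNF382 was lower in every line, by 0.19, 0.10, 0.29 and 0.30 in size (mean -0.22 ± 0.10 SD, n = 4; limma adjusted p = 0.898), but all except the COLO741 value lie under the olfactory median, where the gene was silent. ZNF225 was lower in all 4 lines (mean -0.32 ± 0.21 SD), as was ZNF430 (mean -0.30 ± 0.21 SD), and neither passed the adjustment.

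The zinc finger genes differed between the COLO741 arrays. On its array labelled ABCB5-positive 181 of the 221 zinc finger genes (81.9%) were lower than on its array labelled ABCB5-negative, with a median difference of -0.30, where 54.4% of all genes tested were lower with a median of -0.02. The ZNF genes of other chromosomes had a median of -0.06 in this line, and the other genes of chromosome 19 -0.05. In SW620, HT29 and HCT116 the median over the zinc finger genes was 0.03, 0.02 and -0.04. The median over the 4 lines' mean differences was -0.06 with COLO741 and 0.02 without it, so that its sign turned. Each line has 1 array per population, and in COLO741 the ABCB5 transcript read 9.42 on the array labelled ABCB5-negative and 8.14 on the one labelled ABCB5-positive, against its labels. In the other lines the ABCB5 transcript was silent on all arrays, at 5.24 to 5.69.

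The largest differences within a line were single-array contrasts with no replicate. In COLO741 ZNF583 went from 8.98 to 7.92 and ZNF844 from 7.57 to 8.43 from the ABCB5-negative to the ABCB5-positive array. In HCT116 ZNF773 went from 7.80 to 8.95 and ZNF737 from 5.34 to 4.31, both ends of the latter lying below the olfactory median.

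**Figure D5:**
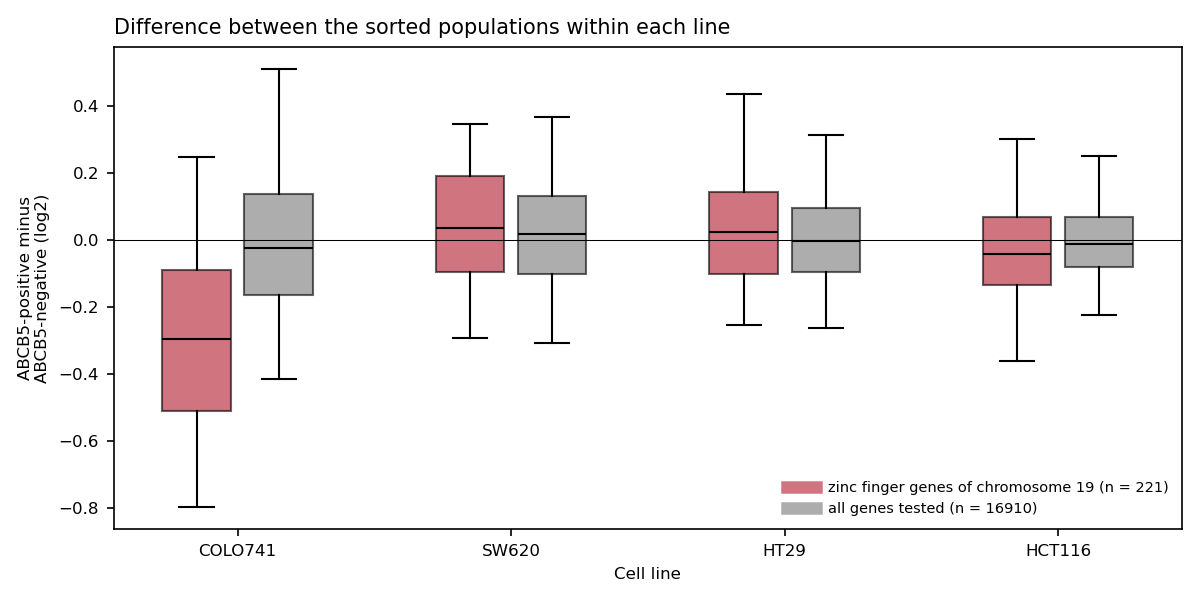
Difference in log2 level between the ABCB5-positive and the ABCB5-negative array of each line, for the 221 zinc finger genes (red) and all 16910 genes tested (grey); boxes span the 25th to 75th percentile over genes, with the median as a line and whiskers at the 5th and 95th percentile, and the spread is over genes, not replicates. The red box of COLO741 lies below 0 with a median of -0.30, and the other boxes straddle 0.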

How the data were processed

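Per the submitters' processing notes, the authors processed the 8 arrays with Affymetrix Expression Console; no version, algorithm or normalization was stated. The deposited values were log2 expression values (read from their range, 2.99 to 15.24) for 33297 probe sets and were used as deposited. Gene names came from GEO's platform annotation, updated by RefSeq gene ID (19460 with 1 gene, 1754 with several, 12083 with none).

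The fits used limma 3.58.1 (R 4.3.3) and genes with a mean of at least 5.73, the olfactory median; residual degrees of freedom were 3, and the fit was tested on simulated data. For the sort the line was the block, since each line gave both populations. Promoters were aligned globally with Biopython 1.88. The number of arrays limits the precision.

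Named were the 20 genes with the largest gap between expressed and silent lines, runs of at least 3 silent neighbours, the 4 largest called differences per line and direction, the 5 brightest genes, the extremes of the sort, and 2 genes named in an earlier account; the genes next to the silence thresholds and ZNF85, ZNF432, ZNF549 and ZNF615 were named after their values were seen. Members and lists were chosen with earlier results of these data known. Alternatives covered thresholds, filters, normalization, probe set choice, the block and left-out arrays.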

Additional observations from a re-analysis of the deposited data

How the results depend on the processing

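Across 174 alternatives for 13 results, 158 stayed within the limits set, 14 gave a smaller count and 2 a larger one. A filter at the 95th percentile of the olfactory probe sets, which by construction tests fewer dim genes, left 64 zinc finger genes differing between the lines, 26 higher and 1 lower in COLO741, 11 higher and 6 lower in SW620, 30 lower in HT29, and 3 higher and 17 lower in HCT116. Under this filter neither the number tested nor the share of all genes called was counted, so these counts cannot be set against that share. Ordinary least squares left 1 lower in COLO741. Leaving out 1 array at a time gave 106 to 116 genes differing, 50 to 74 higher in COLO741, 41 to 55 lower in HT29 and 34 to 41 lower in HCT116; it gave 1 to 5 lower in COLO741 (5 without its ABCB5-negative array, 1 without its ABCB5-positive array or the HT29 ABCB5-positive array) and 4 to 9 higher in HT29 (9 without its ABCB5-negative array). Genes silent in some lines numbered 22 to 49 under other thresholds and margins, and 46 or 40 on the ABCB5-negative or ABCB5-positive arrays alone, against 4.71% to 7.6% and 7.23% or 7.34% of all genes (9.95% to 22.2% and 20.8% or 18.1% of the zinc finger genes). Leaving out COLO741 and using either population's arrays alone were chosen after seeing the data. Without COLO741 it was 19, with 4 neighbouring pairs silent together, and a margin of 1.5 left 6 pairs; the cause was not tested, beyond fewer lines and a stricter rule. Within the limits, the median sort difference still turned sign without COLO741, from -0.06 to 0.02. For the sort, the fit with no replicate block called 0 genes, as did the random block and the fit with the line as block; the unadjusted counts were 0, 9 and 15. With 2 arrays a line, signals near the olfactory background limit what can be told of dim genes.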
